A study of Mus musculus with 6 samples.

Results

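The 40 genes described here encode the machinery that copies DNA and then separates it at cell division. They were listed by name, with earlier results of these data known. Of them, 20 act mainly in S phase, in origin licensing, DNA synthesis and nucleotide supply, and 20 act mainly in G2 phase and mitosis. All 40 were found among the 45706 genes of the table, and all 40 were among the 14635 genes that passed the filter on low counts. The smallest value of any of them in any library was 312 counts, for Rfc4. RNA was sequenced from wild-type mouse lung fibroblasts, which had grown out of collagenase- and trypsin-digested lungs over 7 days in medium with serum and were then detached and purified. Control cells (3 libraries) stayed untreated, and DKK1 cells (3 libraries) received 30 ng/ml of recombinant mouse DKK1 over 24 hours. DKK1 (Dickkopf-1) is a secreted antagonist of Wnt signalling that binds the co-receptors LRP5 and LRP6. The labels give neither the strain, age or sex of the mice nor how the cells were purified, and they do not say whether replicates were separate cultures or animals, so p-values measure only the spread between these samples. Neither group was synchronised as far as the labels say, and no count of cells or of divisions was given.

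Cells that divide first load the MCM2 to MCM7 helicase onto replication origins, then fire the origins and copy the genome with DNA polymerases held by the sliding clamp PCNA. After replication, cyclin A and cyclin B with CDK1 drive entry into mitosis, where kinesins, Aurora and Polo kinases and the checkpoint proteins act on the spindle, until the anaphase-promoting complex with CDC20 ends it. Transcription of the S-phase genes is known to depend on E2F factors, and that of the G2 and mitosis genes on the DREAM, B-MYB and FOXM1 complexes, which bind at an element called the CHR and near CCAAT boxes bound by NF-Y. In lung fibroblasts these genes are customary markers of proliferating cells, such as those that expand after injury. In bulk RNA, fewer cycling cells and less RNA per cycling cell cannot be told apart.

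Both groups of genes were expressed in every library. DKK1 left no member past the threshold when the groups were compared without regard to replicate number, against 0.895% of all tested genes. Among the S-phase genes, small rises in the licensing factor gene Cdc6 and the ribonucleotide reductase gene Rrm2 (log2 fold changes of 0.15 and 0.093) passed it when the replicate number was a term in the model. That fit called 9.42% of all tested genes, and neither gene was called when any 1 replicate number was left out, with log2 fold changes of similar size. Among the G2 and mitosis genes, replicate 2 of control and replicate 2 of DKK1 were both high for most members, and 17 of 20 had a treatment difference above 0 that was small and not called.

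The promoters of some of the members are shown first, because the factors named above are known to act on genes of these kinds through such elements; the sequences show letters that match them. RefSeq windows (assembly GRCm38.p6) of 250 bases before to 50 bases after an annotated start were searched on both strands for an E2F element (TTTCCCGC, TTTCGCGC, TTTGCCGC or TTTGGCGC), for the CHR (TTTGAA) and for CCAAT; overlapping matches were each counted. The stretches below lie upstream of a RefSeq start, hold no exon annotated in GENCODE M21 (GRCm38) and are written 5′ to 3′ on the strand of the gene. In the first 3, of S-phase genes, capitals mark E2F and CCAAT matches; the stretch of Cdc6 lies inside the annotated gene, in an intron.
Mcm5, chr8:75109259-75109508, plus strand: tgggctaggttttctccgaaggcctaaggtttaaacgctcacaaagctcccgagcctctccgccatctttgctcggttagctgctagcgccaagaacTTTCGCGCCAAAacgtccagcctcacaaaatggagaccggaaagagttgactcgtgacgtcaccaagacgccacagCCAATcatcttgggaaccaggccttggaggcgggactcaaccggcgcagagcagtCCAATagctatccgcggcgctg
Mcm6, chr1:128359706-128359955, minus strand: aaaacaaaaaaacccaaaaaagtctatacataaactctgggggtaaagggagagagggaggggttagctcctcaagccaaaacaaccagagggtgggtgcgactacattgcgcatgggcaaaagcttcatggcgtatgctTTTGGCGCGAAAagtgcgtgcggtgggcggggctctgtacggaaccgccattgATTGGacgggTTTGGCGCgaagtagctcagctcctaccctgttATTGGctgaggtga
Cdc6, chr11:98907982-98908150, plus strand: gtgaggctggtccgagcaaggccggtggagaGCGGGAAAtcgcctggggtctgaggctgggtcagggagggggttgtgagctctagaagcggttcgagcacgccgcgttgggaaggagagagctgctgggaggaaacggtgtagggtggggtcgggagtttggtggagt
In Mcm5 and Mcm6, an E2F match on one strand overlapped one on the other, so that both read as a single run of capitals. The next 5 stretches belong to G2 and mitosis genes, and capitals mark CHR and CCAAT matches and, in Cdk1, an E2F match.
Mki67, chr7:135716380-135716629, minus strand: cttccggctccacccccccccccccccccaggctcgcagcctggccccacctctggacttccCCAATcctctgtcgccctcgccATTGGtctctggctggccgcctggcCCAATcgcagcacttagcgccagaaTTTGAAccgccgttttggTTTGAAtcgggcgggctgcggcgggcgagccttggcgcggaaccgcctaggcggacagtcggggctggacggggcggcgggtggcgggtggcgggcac
Top2a, chr11:99024190-99024439, minus strand: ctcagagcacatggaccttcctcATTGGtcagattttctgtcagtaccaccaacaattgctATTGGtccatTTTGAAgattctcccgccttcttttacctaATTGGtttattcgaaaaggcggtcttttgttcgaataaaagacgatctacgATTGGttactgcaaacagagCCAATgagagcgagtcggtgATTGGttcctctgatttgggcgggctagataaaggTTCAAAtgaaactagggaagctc
Cdk1, chr10:69352939-69353162, minus strand: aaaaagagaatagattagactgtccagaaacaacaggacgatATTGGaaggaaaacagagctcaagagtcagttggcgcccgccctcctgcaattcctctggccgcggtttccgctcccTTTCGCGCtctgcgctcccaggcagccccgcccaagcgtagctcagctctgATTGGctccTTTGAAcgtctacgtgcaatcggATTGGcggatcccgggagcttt
Cdc20, chr4:118437353-118437593, minus strand: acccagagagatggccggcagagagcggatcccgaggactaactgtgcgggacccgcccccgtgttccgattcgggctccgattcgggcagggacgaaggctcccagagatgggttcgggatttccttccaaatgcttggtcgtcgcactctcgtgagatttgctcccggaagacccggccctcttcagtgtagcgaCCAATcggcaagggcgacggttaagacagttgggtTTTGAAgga
Kif11, chr19:37376132-37376381, plus strand: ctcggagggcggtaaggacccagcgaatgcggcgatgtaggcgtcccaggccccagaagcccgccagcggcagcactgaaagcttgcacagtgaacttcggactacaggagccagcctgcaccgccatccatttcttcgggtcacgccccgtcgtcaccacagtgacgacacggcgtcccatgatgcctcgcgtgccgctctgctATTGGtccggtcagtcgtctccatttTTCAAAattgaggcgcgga

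Windows were matched by symbol for 16 of the 20 S-phase genes and 16 of the 20 G2 and mitosis genes; Mcm4, Gins2, Pole, Ccne2, Ccna2, Aurkb, Kif20a and Tpx2 had none in the table. An E2F match stood in the window of 6 of the 16 S-phase genes (37.5%: Mcm3, Mcm5, Mcm6, Mcm7, Cdc6 and Pola1), in 1 of the 16 G2 and mitosis genes (6.2%: Cdk1) and in 2.6% of all 27025 genes with a window. A CHR and a CCAAT box stood together in the window of 11 of the 16 G2 and mitosis genes (68.8%), of 2 of the 16 S-phase genes (12.5%: Mcm2 and Cdc45) and of 8.0% of all genes with a window. These are matches of letters, not measured binding, and their absence from a window says only that the letters are not in it.

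Counts per library ranged from 22565917 to 34727102, with 28268124 in control replicate 2 and 34727102 in DKK1 replicate 2. Replicate 2 was therefore the deepest library of each group. All 8 fibroblast markers were detected, with a summed level of 9960 to 12086 CPM (counts scaled to a common library total) over the 6 libraries. Most of it came from Col1a1 and Col1a2, while Dcn was at 33.0 to 65.4 CPM and Lum at only 1.77 to 2.72 CPM. Markers of other cells were also present, and their sums were highest in replicate 3 of both groups. The 10 epithelial markers summed to 39.2 to 48.6 CPM in replicates 1 and 2 and to 129 CPM in both libraries of replicate 3. The 8 endothelial markers summed to 24.8 to 34.4 against 73.5 to 74.3 CPM, the 5 mesothelial markers to 12.1 to 14.2 against 34.6 to 37.9 CPM, and the 10 leukocyte markers to 422 to 516 against 849 to 897 CPM. Lyz2 made up most of the leukocyte sum, at 340, 402 and 696 CPM in control and at 370, 412 and 722 CPM with DKK1. The T-cell gene Cd3e was at 0 counts in every library. No marker of any list was called for DKK1 on groups only (edgeR; against 0.895% of all tested genes), but in the blocked fit 6 of the 8 fibroblast and 5 of the 8 tested leukocyte markers were called, against 9.42% of all tested genes, and none of the epithelial, endothelial or mesothelial ones. Of these, Pdgfra, Dcn, Itgam, Adgre1 and Marco were higher with DKK1, and Col1a1, Col1a2, Pdgfrb, Thy1, Csf1r and Laptm5 lower. The macrophage gene Marco was at 3.86, 4.74 and 10.6 CPM in control and at 16.5, 14.5 and 29.3 CPM with DKK1, and Itgam at 11.5, 12.6 and 20.6 CPM and at 26.3, 25.0 and 43.2 CPM. The part of these differences in the results below was not tested.

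Levels were compared between genes per kilobase of annotated exon. The S-phase gene with the highest level was Pcna, at 77.0 ± 1.48 CPM per kilobase in control (SD, n = 3) and 79.3 ± 1.28 with DKK1 (SD, n = 3), followed by Rrm2 at 72.0 ± 3.51 and 77.1 ± 3.45. The lowest was Mcm10, an adaptor that acts when origins fire, at 3.41 ± 0.244 and 3.61 ± 0.133 CPM per kilobase, below the polymerase alpha gene Pola1 at 5.32 ± 0.0712 and 5.31 ± 0.154. Among the G2 and mitosis genes, Cdc20, the activator of the anaphase-promoting complex, had the highest level with 71.6 ± 4.83 and 74.6 ± 3.83 CPM per kilobase, and Cenpf, a large kinetochore protein, the lowest with 5.92 ± 0.498 and 6.27 ± 0.382. Mki67, the gene of the proliferation marker Ki-67, lay at 46.8 ± 1.80 and 45.0 ± 2.39 CPM per kilobase, within the spread of its neighbour Plk1 at 47.9 ± 1.13 and 47.3 ± 3.13. The median level over the 20 S-phase genes was 17.9 CPM per kilobase and that over the 20 G2 and mitosis genes 28.9, and these medians were 25.6 and 35.3 when the length of the longest transcript was used. The deposited counts had no position along the gene, so a level per kilobase assumes that every annotated exon was used.

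**Figure D1:**
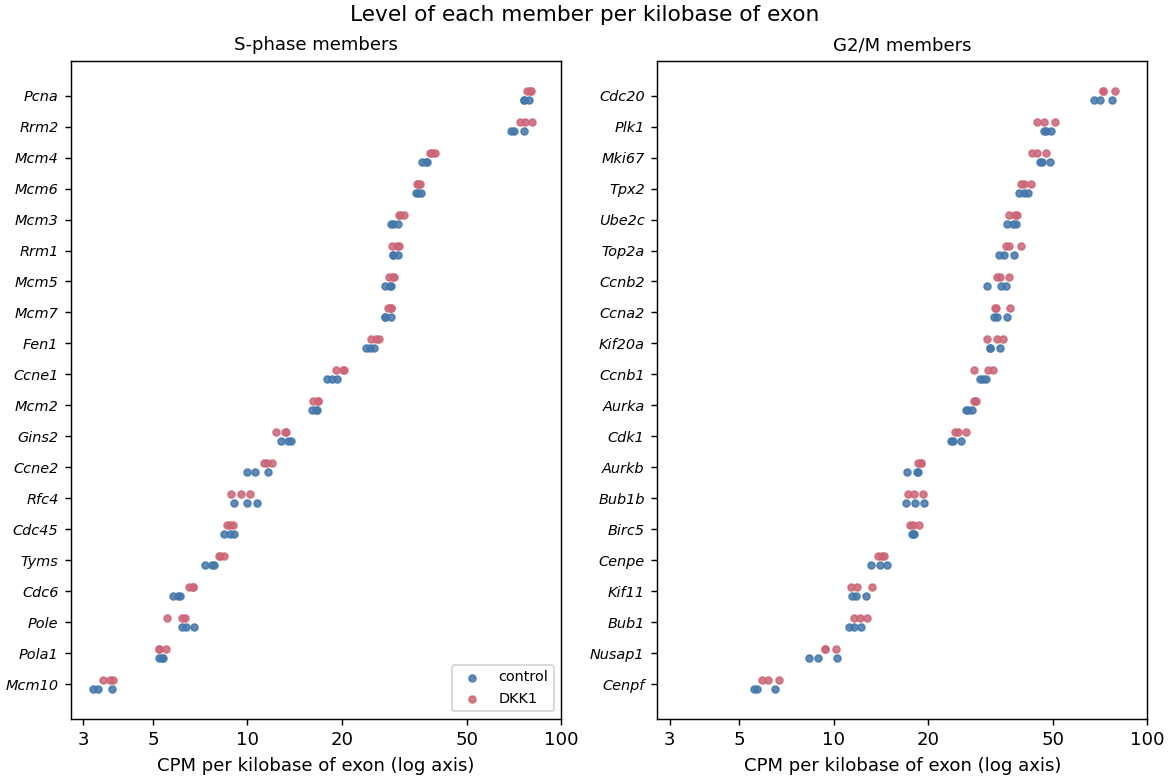
Level of each of the 40 genes in CPM per kilobase of annotated exon (log axis), ordered within each panel by the mean over 6 libraries; each point is 1 library, blue for control and red for DKK1. The 2 groups lie close together for every gene, while genes differ from 3.41 (Mcm10) to 79.3 (Pcna) in their group means.

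The first comparison asked whether 24 hours of DKK1 shifted the genes of DNA replication. None of the 20 S-phase genes was called at the threshold of 0.05 on edgeR's p-value, adjusted by Benjamini and Hochberg's method over all 14635 tested genes. Among all tested genes 0.895% were called, 0.697% higher and 0.198% lower with DKK1. At an unadjusted p under 0.05 there were 2, Cdc6 and Tyms, both higher with DKK1, against 10.6% of all tested genes in either direction and 5.68% higher, and DESeq2 and limma-voom also called 0. By pair, 15, 13 and 14 of the 20 were higher with DKK1 in replicates 1, 2 and 3. The log2 fold change was above 0 for 15 of 20 genes, against 49.6% of all tested genes, with a median of 0.033 against -0.00091 over all tested genes. The median was 0.020 without control replicate 3, and 0.020 to 0.049 over all fits with libraries or pairs left out. Control and DKK1 libraries were fully separated for 4 genes, Mcm3, Mcm4, Tyms and Cdc6, each higher with DKK1, while 16.5% of all tested genes were without overlap and 9.4% were higher without it. Together the 20 genes took 0.193% ± 0.00167 of all counts in control and 0.199% ± 0.00107 with DKK1 (SD, n = 3 each), and the share was higher in each DKK1 library than in any control library. The share of mitochondrial counts also separated the groups, at 1.49% to 1.55% in control and 1.63% to 1.70% with DKK1, and its part in this difference was not tested. No 95% interval of a log2 fold change among these genes reached below -0.27 or above 0.25, so that a change larger than these bounds was outside the interval for every one of the 20.

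Same-numbered libraries of the groups deviated together from their group means, so the comparison was repeated with the replicate number as a further term of the model (a block). With it, 9.42% of all tested genes were called, 4.96% higher and 4.46% lower. In this fit 2 of the 20 S-phase genes were called, Cdc6 and Rrm2, both higher with DKK1. The share of 20 that this makes was near the share of all tested genes, and both calls were lost when any 1 of the 3 pairs of same-numbered libraries was left out of the blocked fit, with log2 fold changes of 0.14 to 0.16 for Cdc6 and 0.084 to 0.099 for Rrm2 in those fits.

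Origin licensing and firing came first. Cdc6 encodes the ATPase that brings the MCM helicase to origins (chromosome 11, 98907801 to 98923940, plus strand, GRCm38; the E2F match shown above lies inside these bounds and upstream of a RefSeq start). Its level was 31.9, 30.2 and 31.4 CPM in control replicates 1, 2 and 3 and 35.0, 34.0 and 35.1 CPM in DKK1 replicates 1, 2 and 3. All 3 DKK1 libraries lay above all 3 control libraries. The log2 fold change was 0.15 (SE 0.044), and the adjusted p in edgeR was 0.236, or 0.0429 when blocked. Over 23 alternatives the adjusted p of Cdc6 ranged from 0.0389 to 0.700 and its log2 fold change from 0.13 to 0.17. Leaving out replicate 1, 2 or 3 of both groups from the blocked fit gave an adjusted p of 0.0638, 0.259 or 0.134.

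The genes of the MCM2 to MCM7 helicase had log2 fold changes between -0.0034 (Mcm6) and 0.076 (Mcm4), and none was called in either fit. Mcm4 was at 133, 134 and 130 CPM in control and 139, 137 and 142 CPM with DKK1, in the order of the replicates. The groups did not overlap, and the log2 fold change was 0.076 (SE 0.033; by edgeR, adjusted p = 0.475, or 0.126 when blocked). Mcm3 was also without overlap, from 108 to 113 CPM in control and from 114 to 118 CPM with DKK1. Mcm2, a customary proliferation marker, was at 116, 112 and 115 CPM in control and at 116, 117 and 112 CPM with DKK1. Its groups overlapped, and the sign of its log2 fold change of 0.0064 (SE 0.035) turned when control replicate 2, DKK1 replicate 1, DKK1 replicate 2 or both replicate 2 libraries were left out. Of the origin-firing genes, Mcm10 ranged from 24.8 to 28.4 CPM in control and from 26.7 to 28.7 with DKK1, Cdc45 from 29.5 to 31.7 and from 30.1 to 31.5, and Gins2 from 52.3 to 56.3 and from 50.6 to 54.4, all with overlap. Gins2 shares 2758 bases of exon with Gse1 on the other strand, and Cdc45, Mcm7, Pole, Rfc4, Fen1 and Ccne2 share shorter stretches with other genes. The strandedness of the libraries is not given in the sources used here, so it is not known whether reads in the shared bases were told apart.

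Among the enzymes of synthesis, the clamp gene Pcna was at 183, 189 and 182 CPM in control and at 187, 191 and 193 CPM with DKK1. DKK1 was higher in all 3 same-numbered pairs, but the groups overlapped, and the log2 fold change of 0.036 (SE 0.033; by edgeR, adjusted p = 0.779) turned to -0.015 when each library's trend with GC content and transcript length was removed. Pole, the catalytic subunit of the leading-strand polymerase, went the other way, with 71.0, 75.3 and 68.9 CPM in control and 70.7, 68.9 and 61.9 CPM with DKK1. It was lower with DKK1 in all 3 pairs, with overlap between the groups and a log2 fold change of -0.099 (SE 0.061; by edgeR, adjusted p = 0.649, or 0.116 when blocked). In the blocked fit without replicate 1 of both groups, which called 8.89% of the genes it tested, Pole was called lower, with a log2 fold change of -0.14 and an adjusted p of 0.0187. Without replicate 2 or 3 it was not called (-0.081 and -0.078, adjusted p = 0.488 and 0.355). With libraries or pairs left out, over both kinds of fit, its log2 fold change ran from -0.14 to -0.043. The primase-associated polymerase gene Pola1 was level, from 46.2 to 47.4 CPM in control and from 45.9 to 48.4 CPM with DKK1. Rfc4, a subunit of the clamp loader, was at 15.3, 16.4 and 13.9 CPM in control and at 14.6, 15.7 and 13.6 CPM with DKK1, highest in replicate 2 and lowest in replicate 3 of each group. Fen1, which trims the flaps of lagging-strand fragments, ranged from 57.9 to 61.2 CPM and from 60.1 to 63.4 CPM.

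Nucleotide supply held the second gene called with the block. Rrm2, the subunit of ribonucleotide reductase whose level is known to follow S phase, was at 196, 192 and 211 CPM in control and at 212, 205 and 224 CPM with DKK1. Within every pair the DKK1 library was higher, while across pairs the groups overlapped because replicate 3 was high and replicate 2 low in both. The log2 fold change was 0.093 (SE 0.045; by edgeR, adjusted p = 0.533) and, with the block, 0.093 (SE 0.022; by edgeR, adjusted p = 0.0180). With the GC and length trends removed in the blocked fit it was 0.053 and no longer called (adjusted p = 0.215), and over 23 alternatives the adjusted p ranged from 0.0180 to 0.893. Without replicate 1, 2 or 3 of both groups the blocked fit gave 0.0592, 0.135 or 0.0502. Rrm1, the other subunit, had a log2 fold change of 0.0088 (SE 0.036) around a mean of 324 CPM in control. Tyms, the thymidylate synthase gene, was at 44.4, 47.7 and 46.9 CPM in control and at 49.4, 51.4 and 49.7 CPM with DKK1. Its groups did not overlap, and its log2 fold change of 0.11 (SE 0.044) was not called by edgeR (adjusted p = 0.418, or 0.0920 when blocked).

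The cyclin E genes, whose proteins activate CDK2 at the start of S phase, were not called in either fit. Ccne1 ranged from 47.7 to 51.4 CPM in control and from 51.1 to 54.0 CPM with DKK1, and was higher with DKK1 in all 3 pairs. Ccne2 ranged from 34.9 to 40.7 and from 39.5 to 41.7 CPM and was higher in 2 pairs.

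**Figure D2:**
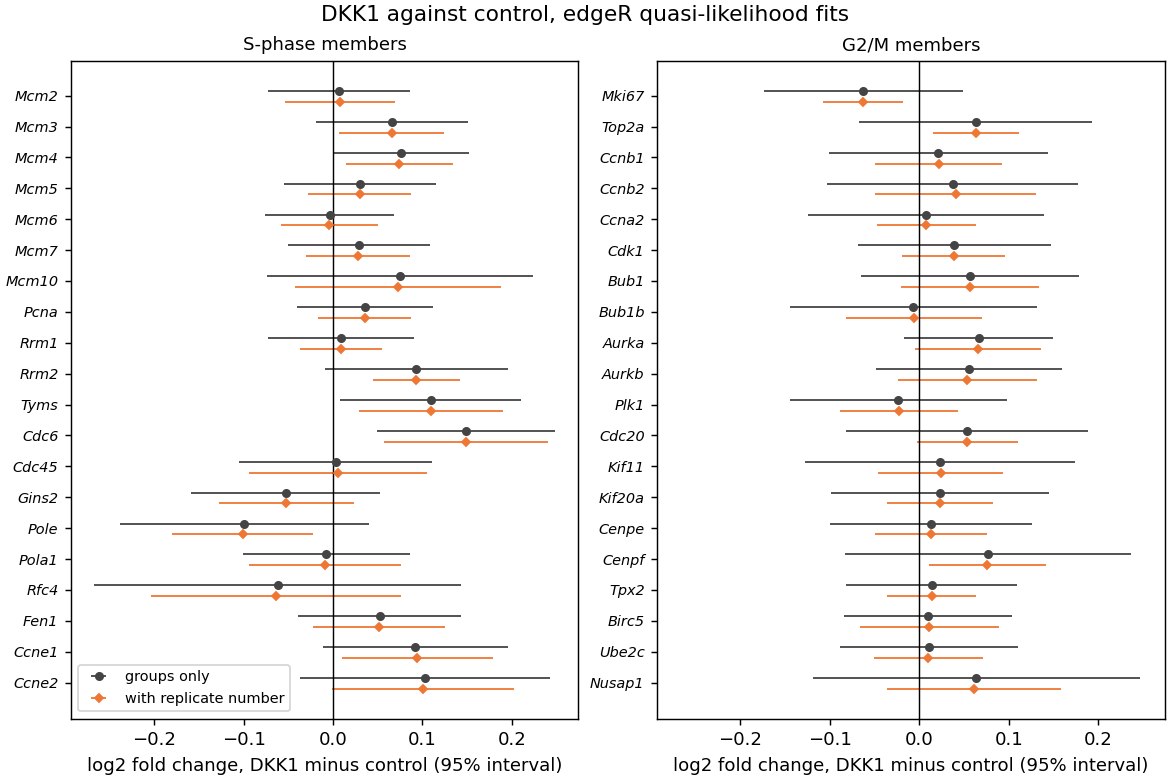
Log2 fold change (DKK1 minus control) of each gene with its 95% interval, from the edgeR fit on groups only (black circles) and from the fit with the replicate number as a block (orange diamonds). Black intervals of all genes but Cdc6 and Tyms include 0; the block narrows the intervals, most in the right panel, and moves the points little.

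The same comparison was made for the genes of G2 and mitosis. None of the 20 genes was called without the block (edgeR, adjusted p under 0.05; against 0.895% of all tested genes) or with it (against 9.42%), 0 had an unadjusted p under 0.05 without the block, and DESeq2 and limma-voom called 0. The smallest adjusted p without the block was 0.600, for Aurka. The log2 fold change was above 0 for 17 of 20 genes, with a median of 0.023. That median was 0.0055, 0.060 and 0.0098 without control replicate 1, 2 or 3 and 0.038, -0.0096 and 0.057 without DKK1 replicate 1, 2 or 3. It was 0.012 with the GC and length trends removed. In each fit without 1 library, 1 replicate number stood in a single group, and replicate 2 was high in both groups for most members. The part of this in these medians was not tested. By pair, 18, 16 and 10 of the 20 were higher with DKK1 in replicates 1, 2 and 3, with median log2 differences of 0.062, 0.041 and 0.0062, against 7610, 7581 and 7400 of the 14635 tested genes. Of the 20, 8 genes were higher with DKK1 in all 3 pairs, against 22.3% of all tested genes, while 1, Mki67, was lower in all 3, against 19.5%. The summed share of counts was 0.254% ± 0.0108 in control and 0.257% ± 0.0123 with DKK1 (SD, n = 3 each), a difference smaller than the spread within either group. The 95% intervals of the 20 log2 fold changes all lay between -0.17 and 0.25, and between -0.11 and 0.16 with the block. When the GC and length trends were removed in the blocked fit, Cenpf alone of the 20 was called, higher with DKK1 (log2 fold change 0.11, edgeR adjusted p = 0.0367, in a range of 0.0367 to 0.999 over its 23 alternatives). That fit called 8.76% of all tested genes.

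The proliferation marker Mki67 was at 458, 492 and 464 CPM in control and at 448, 479 and 431 CPM with DKK1. DKK1 was lower in each pair, the groups overlapped, and replicate 2 was highest in both. Its log2 fold change was -0.062 (SE 0.049; by edgeR, adjusted p = 0.731, or 0.0844 when blocked). Where replicate 1 of both groups was left out of the blocked fit, Mki67 was called lower (against 8.89% of all genes tested there), at -0.075 with an adjusted p of 0.0297. Without replicate 2 or 3 it was not (-0.071 and -0.042, adjusted p = 0.271 and 0.355). Top2a, which untangles replicated DNA, moved the opposite way in each pair, at 302, 339 and 315 CPM in control and at 327, 356 and 320 CPM with DKK1. Its groups overlapped, and the log2 fold change was 0.063 (SE 0.057; by edgeR, adjusted p = 0.775, or 0.105 when blocked). It ran from 0.011 to 0.11 with libraries or pairs left out, where that of Mki67 ran from -0.11 to -0.026. These customary markers of the same cell population thus had estimates of opposite sign, each within its interval of 0 in the fit on groups only.

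For the cyclins and their kinase, the differences were smaller than the differences between replicate numbers. Ccna2 was at 132, 145 and 135 CPM in control and at 133, 149 and 134 CPM with DKK1, and Ccnb1 at 123, 129 and 126 CPM and at 131, 135 and 119 CPM. Cdk1, the kinase that cyclins A and B activate, was at 119, 126 and 117 CPM in control and at 120, 130 and 123 CPM with DKK1. Replicate 2 was the highest library of each group for all 3 genes. Their log2 fold changes were 0.0080, 0.021 and 0.039, and those of Ccna2 and Ccnb1 turned negative when the GC and length trends were removed (-0.020 for each). Without DKK1 replicate 2, which left replicate 2 in the control group only, all 3 turned negative (-0.053, -0.025 and -0.0012). Those of Ccna2 and Ccnb1 also did so in other left-out fits. Ccnb2 ranged from 47.1 to 54.3 CPM in control and from 50.9 to 55.6 CPM with DKK1.

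Aurka, the Aurora kinase of the spindle poles, was 1 of 20 G2 and mitosis genes with the groups fully apart; among all tested genes 16.5% were so, and 9.4% were so with DKK1 higher. It was at 66.8, 69.6 and 67.6 CPM in control and at 71.1, 71.6 and 71.8 CPM with DKK1, a log2 fold change of 0.067 (SE 0.036; by edgeR, adjusted p = 0.600, or 0.277 when blocked). Aurkb, the Aurora kinase of the chromosomal passenger complex, was at 54.9, 54.2 and 50.6 CPM in control and at 56.0, 56.0 and 54.6 CPM with DKK1, with overlap. Plk1, the Polo-like kinase, was at 105, 108 and 103 CPM in control and at 103, 111 and 97.8 CPM with DKK1, so that its 3 DKK1 libraries spanned all 3 control libraries.

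Cdc20 was at 126, 144 and 132 CPM in control and at 135, 148 and 135 CPM with DKK1, higher in each pair but with overlap (log2 fold change 0.054, SE 0.059, range with libraries or pairs left out 0.0053 to 0.11; by edgeR, adjusted p = 0.829). Ube2c, the ubiquitin-conjugating enzyme that works with the anaphase-promoting complex, ranged from 92.7 to 99.1 CPM in control and from 94.0 to 99.8 CPM with DKK1. The spindle checkpoint genes Bub1 and Bub1b had log2 fold changes of 0.057 and -0.0064, and the survivin gene Birc5, of the passenger complex, 0.0098. Of the motor and kinetochore genes, Kif11 ranged from 85.4 to 94.3 CPM in control and from 84.7 to 99.1 CPM with DKK1, Kif20a from 136 to 147 and from 134 to 150 CPM, and Cenpe from 113 to 128 and from 119 to 125 CPM. Tpx2 and Nusap1, which act on spindle microtubules, had log2 fold changes of 0.014 and 0.064. That of Nusap1 ran from -0.0070 to 0.16 with libraries or pairs left out. The exons of Ccna2, Kif20a, Nusap1, Cdc20 and Ube2c overlap those of Exosc9, Cdc23, Oip5, Elovl1 and Tnnc2 on the other strand by 510, 1271, 172, 53 and 592 bases. Plk1 shares 156 bases with Gm44985 on the other strand, and Top2a 122 bases with Gm23451 on the same strand. Whether reads in the shared bases were told apart is not known.

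**Figure D3:**
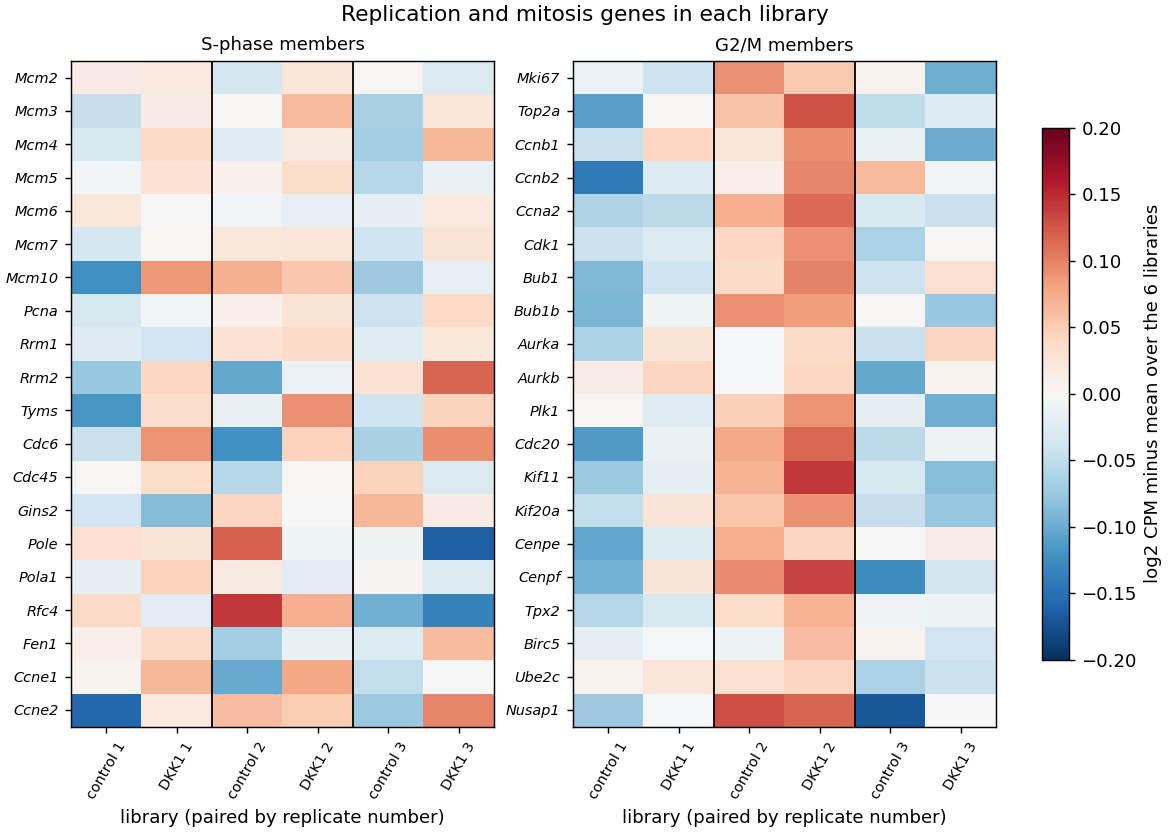
Deviation of each gene's log2 CPM (pseudocount 0.1) from its own mean over the 6 libraries, in colour from -0.20 (blue) to 0.20 (red), with the libraries side by side by replicate number. In the right panel both replicate 2 columns are red for most genes, up to all 20 in DKK1 replicate 2, while the left panel has no such band.

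The second comparison asked how the genes differed between replicate numbers, whose meaning the labels do not give. An F test of the replicate-number terms in the edgeR model with group and number called 12.9% of all tested genes (adjusted p under 0.05), 1 of the 20 S-phase genes (Rrm2) and 9 of the 20 G2 and mitosis genes. These 9 were Mki67, Top2a, Ccna2, Cdk1, Cdc20, Kif11, Kif20a, Cenpf and Nusap1, and replicate 2 was the highest library of both groups for each of them. Over the 20 genes, replicate 2 was the highest in both groups for 16 (against 14.2% of all tested genes), and both replicate 2 libraries lay above all 4 others for 15 (against 7.58%). The corresponding numbers among the 20 S-phase genes were 5 and 2. The count of 9 rested on both replicate 2 libraries. It was 0 without control replicate 2, where 1018 of 14720 genes were called in all. Without DKK1 replicate 2 it was 1 (Cenpf), with 1005 of 14712 in all, and without both it was 0, with 924 of 14586. Among all tested genes 796 to 2545 were called over the left-out fits. The count for the 20 was 7 to 12 when a library of replicate 1 or 3 was left out. It also moved with the processing: DESeq2, run on all 23883 genes with its own filter, called 2 of the 20 (Mki67 and Top2a) and 724 genes in all, against 1889, so that tool and filter changed together. On the filtered genes limma-voom called 9. With edgeR the count was 14 with no filter on low counts and 14 with GC and length trends removed.

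The size of this pattern was modest. The median log2 difference of replicate 2 from replicate 1 was 0.12 over the G2 and mitosis genes, 0.021 over the S-phase genes and close to 0 over all tested genes, and that of replicate 3 from replicate 1 was -0.0066, -0.015 and -0.00016. Cenpf was at 87.9, 100 and 86.0 CPM in control and at 95.5, 103 and 91.5 CPM with DKK1 (replicate 2 minus replicate 1, 0.15; adjusted p of the replicate terms in edgeR = 0.00389). For Top2a the same difference was 0.15 (adjusted p = 0.00244), for Cdc20 0.16 (0.00622), for Ccna2 0.15 (0.00581) and for Mki67 0.10 (0.00693). The median log2 fold change for DKK1 over the same 20 genes was 0.023, in a range of -0.0096 to 0.060 over fits with libraries or pairs left out. Nusap1 was at 36.2, 41.7 and 33.9 CPM in control and at 38.0, 41.3 and 38.1 CPM with DKK1, which put both replicate 2 libraries on top. Aurka, Aurkb, Birc5 and Ccnb2 were the G2 and mitosis genes without replicate 2 on top in both groups.

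Rrm2 differed from this pattern, although its replicate terms were also called (adjusted p = 0.0280). That call was lost with DESeq2, without replicate 2 or 3 of either group and with the GC and length trends removed, where Pole was called in its place. Replicate 2 was its lowest and replicate 3 its highest library in both groups. Replicate 2 was also the deepest library of each group, and with all libraries thinned to the smallest total the count was 7 of 20 G2 and mitosis genes. Markers of epithelial, endothelial, mesothelial and leukocyte cells were highest in replicate 3 of both groups and not in replicate 2, and their part in the differences between replicates was not tested. The summed fibroblast markers were highest in replicate 2 of each group, at 12086 CPM in control and 11485 CPM with DKK1.

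**Figure D4:**
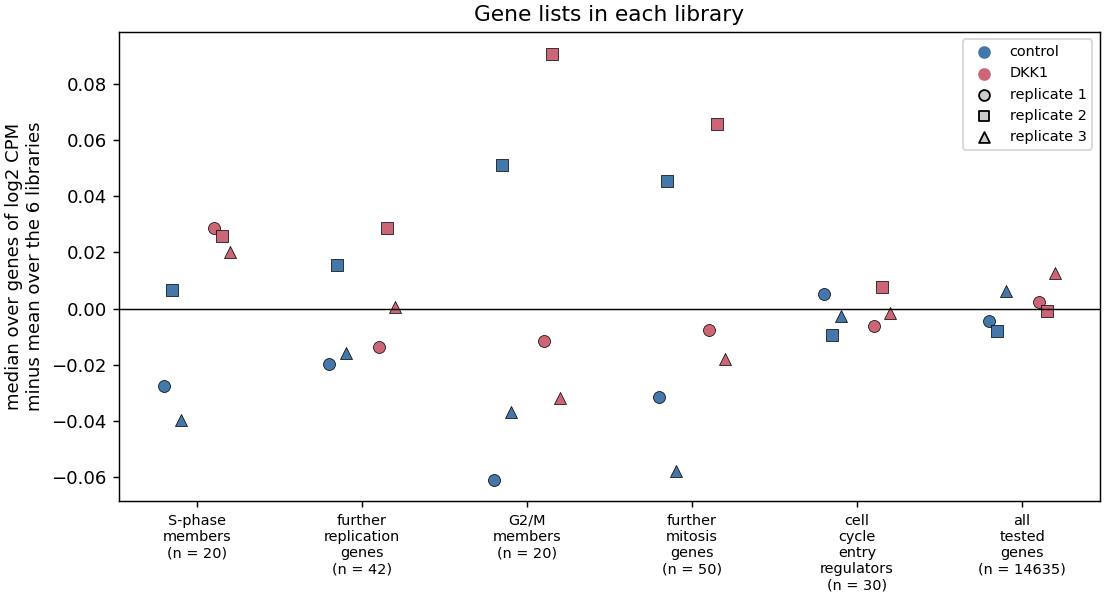
Median over the genes of each list of the deviation of log2 CPM from the gene's mean over 6 libraries, by library; colours give the group and shapes the replicate number. Replicate 2 of both groups (squares) stands above the other libraries for the G2 and mitosis members (0.051 and 0.091) and the further mitosis genes, while for the S-phase members all 3 DKK1 libraries (0.020 to 0.029) lie above all 3 control libraries (-0.040 to 0.0067).

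Promoter matches were set beside the replicate pattern as a description. Of the 11 G2 and mitosis genes with a CHR and a CCAAT box in their window, 6 had called replicate terms (Mki67, Top2a, Cdk1, Cdc20, Kif11 and Cenpf), and of the 5 with a window without the pair, 1 did (Nusap1). The replicate terms were called for 12.9% of all tested genes. Without control replicate 2 they were called for 0 of the 20 G2 and mitosis genes, and without DKK1 replicate 2 for 1 (Cenpf). No test was made between sets of so few genes.

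Other genes of the pathways, listed by their role, were read from the same fits. Of 42 further replication genes (the origin recognition complex, polymerase subunits, RPA, ligase, nucleotide enzymes and chromatin assembly factors), none was called without or with the block (edgeR; against 0.895% and 9.42% of all tested genes), 3 had an unadjusted p under 0.05 without it, against 10.6% (Orc3 and Gins1 with log2 fold changes of 0.14 and 0.21, Gins3 with -0.30), and DESeq2 and limma-voom called 0. Their log2 fold change was above 0 for 23 of 42, with a median of 0.0042. The replicate terms were called for 3 of 42, against 12.9% of all tested genes, and replicate 2 was highest in both groups for 10 of 42, against 14.2%.

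Of 50 further mitosis genes, none was called without the block, against 0.895% of all tested genes, and DESeq2 and limma-voom called 0. An unadjusted p under 0.05 was found for 1 (Pttg1, log2 fold change 0.19), against 10.6% of all tested genes. With the block 2 of 50 were called, against 9.42% of all tested genes, both higher with DKK1. Smc2, a condensin subunit, was at 129, 140 and 128 CPM in control and at 140, 148 and 141 CPM with DKK1. Hmmr, a spindle-associated hyaluronan receptor, was at 76.0, 83.8 and 75.2 CPM in control and at 83.1, 89.7 and 81.7 CPM with DKK1. Both were higher in each pair, both overlapped between the groups, and both were highest in replicate 2. Their log2 fold changes with the block were 0.11 and 0.11 (edgeR adjusted p = 0.0193 and 0.0383; ranges over 23 alternatives 0.0193 to 0.873 and 0.0383 to 0.959). With replicate 1, 2 or 3 left out of the blocked fit, the adjusted p was 0.0373, 0.0865 or 0.0960 for Smc2 and 0.121, 0.170 or 0.113 for Hmmr. Neither was called once the GC and length trends were removed (0.087 and 0.078, adjusted p = 0.0580 and 0.160). Of the 50, that fit called 1, Racgap1, lower, against 8.76% of all tested genes. Replicate 2 was the highest library of both groups for 34 of the 50, against 14.2% of all tested genes, and the replicate terms were called for 11 of 50, against 12.9%.

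The 30 regulators of cell cycle entry (D cyclins and their kinases, E2F, pocket and MuvB proteins, MYB, FOXM1 and MYC) had a median log2 fold change of -0.0029, with 14 of 30 above 0. None was called without the block (edgeR, against 0.895% of all tested genes), and DESeq2 and limma-voom called 0. An unadjusted p under 0.05 was found for 1, E2f6, against 10.6% of all tested genes. With the block 3 of 30 were called, a share close to the 9.42% of all tested genes (4.46% lower), and all 3 were lower with DKK1. Without regard to calls 5 of the 30 were higher without overlap, against 9.4%, and 2, E2f6 and E2f1, lower, against 7.14%. E2f6, a repressor of the E2F family, was at 69.4, 73.3 and 70.0 CPM in control and at 64.2, 63.6 and 60.2 CPM with DKK1, without overlap, with a log2 fold change of -0.18 (SE 0.035 when blocked; adjusted p in edgeR = 0.00411, or 0.139 on groups only). Cdk6, a partner of the D cyclins, was at 95.7, 85.9 and 80.4 CPM in control and at 86.1, 75.0 and 71.9 CPM with DKK1, lower in each pair and overlapping across them (log2 fold change with the block -0.18, SE 0.030; adjusted p in edgeR = 0.00196). Ccnd2, a D cyclin gene, was at 504, 532 and 473 CPM and at 471, 482 and 452 CPM (-0.11, SE 0.021; adjusted p in edgeR = 0.00471). Over 23 alternatives the adjusted p ranged from 7.03e-05 to 0.622 for E2f6, from 0.000377 to 0.872 for Cdk6 and from 0.000176 to 0.879 for Ccnd2. With libraries or pairs left out, over both kinds of fit, their log2 fold changes ran from -0.22 to -0.15, -0.26 to -0.10 and -0.16 to -0.063. The 3 calls were lost in the blocked edgeR fit without replicate 2 of both groups (adjusted p = 0.0945, 0.0617 and 0.146), with log2 fold changes of -0.17, -0.16 and -0.085. They stayed without replicate 1 (7.03e-05, 0.000377 and 0.000176), where 8.89% of all genes tested were called. They also stayed without replicate 3 (0.0312, 0.00934 and 0.00673, with 1059 of 14868 genes called). With GC and length trends removed in the blocked fit they stayed too (0.00180, 0.00990 and 0.0104, against 8.76%). Exons of Cdk6 and Ccnd2 overlap antisense transcripts on the other strand, by 368 bases or more, and those of Ccnd1 share 1100 bases with the protein-coding gene LTO1 on the other strand.

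Ccnd1, a D cyclin gene known as a target of Wnt signalling, was at 101, 125 and 93.9 CPM in control and at 93.9, 114 and 92.2 CPM with DKK1. It was lower in each pair and higher in replicate 2 than in the other libraries, with a log2 fold change of -0.093 (SE 0.12; by edgeR, adjusted p = 0.859, or 0.0779 when blocked). Without replicate 3 of both groups the blocked fit called it lower (-0.12, adjusted p = 0.0447), while without replicate 1 or 2 it was not called (adjusted p = 0.159 and 0.487), and without control replicate 2 the fit on groups only gave 0.041. Myc, also a known Wnt target, was at 52.6, 54.1 and 54.6 CPM in control and at 55.5, 58.1 and 56.7 CPM with DKK1, higher without overlap but not called (log2 fold change 0.073, SE 0.039; adjusted p in edgeR = 0.588). E2f1 was lower without overlap, from 52.2 to 56.2 CPM in control and from 49.3 to 51.5 CPM with DKK1 (edgeR adjusted p = 0.561). Foxm1 and Mybl2, whose proteins drive the G2 and mitosis genes, had log2 fold changes of -0.047 (SE 0.036) and -0.040 (SE 0.059). With libraries or pairs left out these ran from -0.065 to -0.025 and from -0.087 to 0.015, and with GC and length trends removed they were -0.020 and -0.019. Neither gene had replicate terms called in edgeR (adjusted p = 0.376 and 0.288).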

How the data were processed

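The deposited table held expected counts per gene, as RSEM gives them. The submitters' processing notes name STAR, RSEM, edgeR 4.2.1 and the builds GRCm38 and mm10, without saying which step each served. Annotation release and strandedness are not given in the sources used here. Symbols were matched for 45143 of 45706 identifiers (98.8%) through a supplied name table; exons, lengths and overlaps came from GENCODE M21.

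The deposited expected counts were rounded to whole numbers; genes were tested with edgeR 4.0.16 (R 4.3.3) after filterByExpr (minimum count 10), TMM factors, quasi-likelihood tests, two-sided, with Benjamini-Hochberg adjustment over 14635 genes, called under 0.05. Standard errors are approximate and were derived from the log2 fold change and its F statistic. The fits were tested on simulated data with the same spread for all genes. For the treatment fits, with and without the block, the simulated data held no differences between replicate numbers. The replicate numbers come from the sample titles; deviations of same-numbered libraries from their group means correlated across genes with r = 0.27, 0.23 and 0.41, so the numbers were taken to pair the samples. No library was a copy of another, and intervals cover counting and replicate error as the model sees them. Alternatives were other scaling, filters, GC and length offsets, DESeq2 1.42.0, limma-voom (limma 3.58.1), unrounded counts and left-out libraries; thinning, leaving out pairs and leaving out pairs with the block were added after the data were seen.

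The 40 genes, the further lists, the markers and the tests were chosen with earlier results of these data known. Values in every library are given for the genes with the smallest p for treatment or replicate terms, the highest and lowest levels, those called in either fit and customary markers; Mcm3, Pttg1, Orc3, Gins1, Gins3 and the ranges of other members were chosen after their values were seen.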

Additional observations from a re-analysis of the deposited data

How the results depend on the processing

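With every gene kept, however low its counts, 329 of 23883 genes were called, with DESeq2 on the same unfiltered genes 289, with the replicate block 1379 and with GC and length trends removed in the blocked fit 1282, against 131. Leaving out a library or pair gave 5 to 149 genes on groups only (131 with none left out) and 612 to 1312 when a pair was left out of the blocked fit (1379 with none left out). The replicate block called 2 S-phase genes, 2 further mitosis genes and 3 entry regulators, and with GC and length trends removed as well it called 1 S-phase gene, 1 G2 and mitosis gene, 2 further replication genes, 1 further mitosis gene and 3 entry regulators. Fits on groups only with a library or pair left out called 0 genes of these lists; the blocked fits with a pair left out called 0 to 1 S-phase genes, 0 to 1 G2 and mitosis genes, 0 to 2 further replication genes, 0 to 1 further mitosis genes and 0 to 4 entry regulators. Over both kinds of left-out fit the median log2 fold change ranged from -0.022 to 0.016 for the entry regulators, 0.020 to 0.049 for the S-phase genes, -0.0096 to 0.060 for the G2 and mitosis genes, -0.014 to 0.021 for the further replication genes and -0.014 to 0.055 for the further mitosis genes. All other alternatives called 0 members. The replicate terms called 724 genes with DESeq2 and 796 to 2545 with libraries left out; for the S-phase genes 2 without a filter, 0 with DESeq2 and 0 to 2 with libraries left out, and for the G2 and mitosis genes 14 without a filter, 14 with GC and length trends removed, 2 with DESeq2 and 0 to 12 with libraries left out.

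Signs turned for Pcna (-0.015 with GC and length trends removed, -0.015 with the block added), Ccna2 (-0.020 and -0.020) and Ccnb1 (-0.020 and -0.021), and for Pola1 when thinned (0.0047). With libraries or pairs left out, over both kinds of fit, log2 fold changes ranged from -0.053 to 0.051 for Ccna2, -0.042 to 0.014 for Pola1, -0.13 to 0.0025 for Rfc4, -0.017 to 0.027 for Mcm2, -0.20 to 0.041 for Ccnd1, -0.0070 to 0.16 for Nusap1, -0.025 to 0.077 for Ccnb1, -0.0012 to 0.074 for Cdk1, -0.080 to 0.021 for Plk1 and -0.087 to 0.015 for Mybl2. The cause was not tested. Each member had at least 312 counts in each library. The shares of counting error and of spread between libraries in the intervals were not tested; the biological coefficient of variation was 6.99% on groups only and 2.30% with the block.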
